A study of Mus musculus with 10 samples.

Results

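The 10 neuronal microtubule genes described here were followed through development of the mouse neocortex. They encode the microtubule-associated proteins Map1a, Map1b, Map2 and Mapt (tau), the doublecortins Dcx and Dclk1, and the stathmins Stmn1, Stmn2, Stmn3 and Stmn4. They were taken by gene name from a deposited table of 6147 genes, which held all 10 of them. Neocortical RNA of CD1 wild-type mice, an outbred strain, was collected at embryonic days E12.5, E14, E15.5 and E17 and on the day of birth (P0). Each of the 5 stages had 2 libraries, 10 in all, which the series calls biological duplicates. No mouse carried an allele or received a treatment according to the labels, and the stages shared genotype, tissue and protocol. The labels give no litter, sex, dissection or batch and do not say whether animals were pooled, so each p-value below rests on the spread between these libraries. Abundances are TPM, the share of a library's transcripts that a gene holds after correction for gene length, scaled to a common total. Changes are differences of log2(TPM + 1), later minus earlier, fitted with limma over the 6048 genes whose mean reached 1 TPM. All 10 genes passed this filter. A change was called at a Benjamini-Hochberg adjusted p under 0.05.

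Microtubules give axons and dendrites their shape, serve as tracks for transport and move the nucleus of a migrating neuron. Microtubule-associated proteins bind along the polymer and bundle or stabilise it, whereas stathmins bind free tubulin dimers and favour disassembly, an activity that phosphorylation turns off. Doublecortin binds the microtubule lattice in young neurons, and mutations of the human gene disturb the layering of the cortex. In the developing neocortex these genes are known mostly for newborn and growing neurons.

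The listed genes together held between 68.88% and 71.67% of all TPM per library, and between 5990 and 6036 of them reached 1 TPM. The 8 neocortical marker genes found among a list of 12 were above 0 in every library, with a summed level between 1030 and 1710 TPM. The summed level of 11 postmitotic neuron markers (none of them among the 10 genes) went from 1480 to 1530 TPM at E12.5 to 5300 to 5520 TPM at P0, and that of 14 proliferation markers from 2020 to 2090 TPM to 219 to 224 TPM. In such bulk tissue, fewer cells of a type and less RNA per cell cannot be told apart. The duplicates of E17 and P0 lay further apart than the others. The SD over genes of the difference between duplicates on the log2 scale was 0.285 at E17 and 0.176 at P0, against 0.088 to 0.108 at the earlier stages.

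The levels of the 10 genes summed to 0.398% of all TPM at E12.5 and to 1.35% at P0 (means of 2 libraries). Between those stages 9 of the 10 were called higher and none lower, where 27.1% of the genes tested were called higher and 51% lower. In all 10, both P0 libraries were above both E12.5 libraries, as in 32.5% of the genes tested. Mapt and Stmn4 rose most, about 12-fold (fold of the mean TPM, 12.1 and 11.9), followed by Stmn2, 8.18-fold. The median change of the 10 genes was 1.55 on the log2 scale, beside -0.27 over all genes tested. Map1b, at 0.31 (SE 0.15, adjusted p = 0.0862), was the gene not called. The F test over the 5 stages called all 10 genes, where 82.9% of all genes were called. Map1b passed it narrowly (adjusted p = 0.04952). The count was 9 with a pseudocount of 10 TPM, with no filter, with a filter at 5 TPM or with no variance trend, 8 without either library of E15.5, and 9 without either library of E12.5 or E14 or replicate 2 of P0. Scaling the libraries by the median ratio of genes brought the median of all genes from -0.27 to -0.01 and the share of higher among all calls from 34.7% to 50.1%, and the 10 values were positive under both scalings. Markers of other tissues moved between these stages too: the summed level of 3 erythroid genes went from 4320 to 4490 TPM at E12.5 to 2.04 to 2.49 TPM at P0, that of 5 meningeal genes from 173 to 2.22 to 2.57 TPM, and that of 2 choroid plexus genes from 303 to 452 TPM to 3.07 to 4.57 TPM. Their part in the changes was not tested. Relative to the median gene, each of the 10 stood about 0.27 further up than its printed change.

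**Figure D1:**
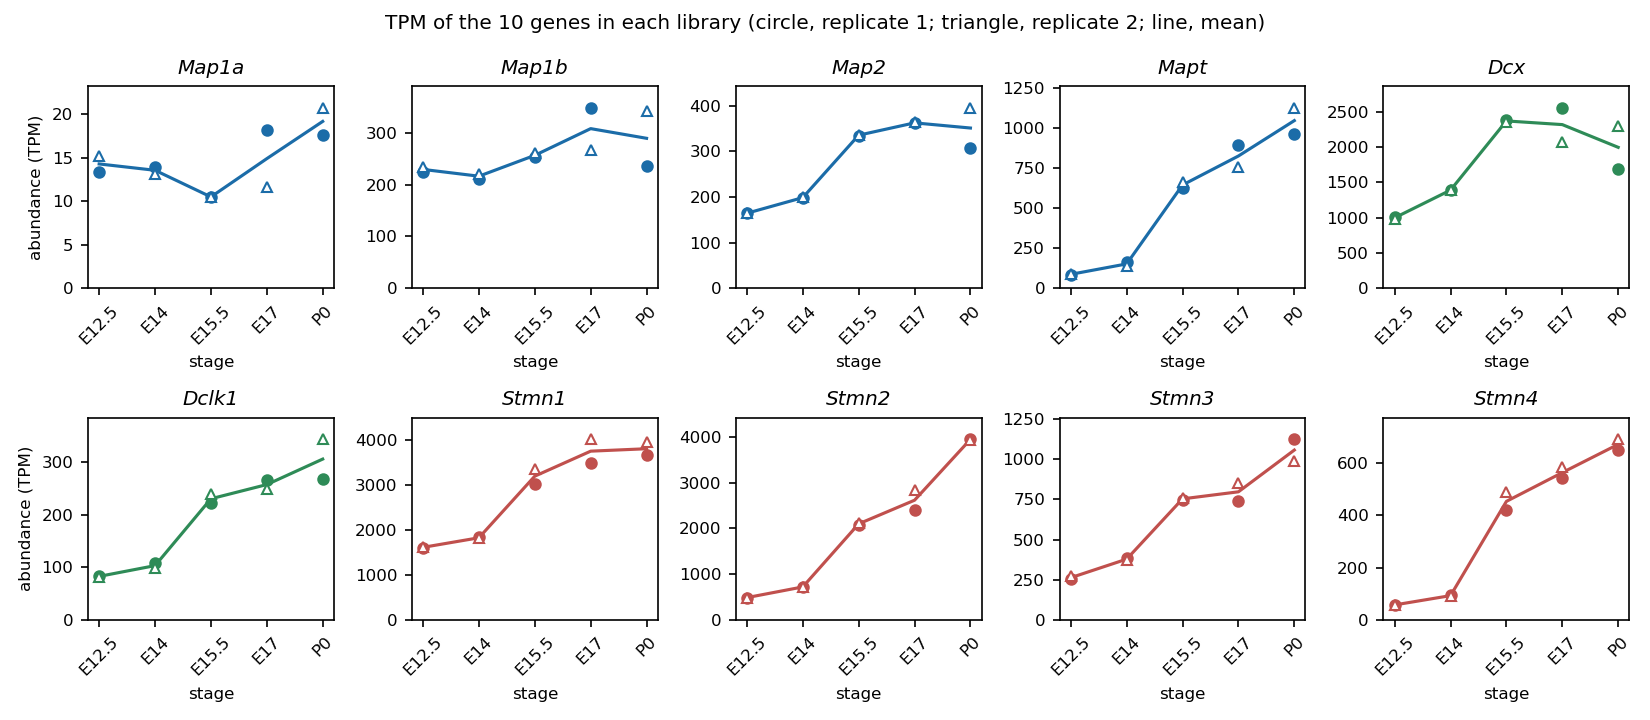
TPM of each of the 10 genes (vertical axes, from 0, each with its own scale) at the 5 stages (horizontal axes), with circles and triangles for the 2 libraries of a stage and a line through their mean. Map2, Mapt, Dcx, Dclk1 and the stathmins each have their largest climb between E14 and E15.5, and Map1a is at its lowest at E15.5 with 10.5 TPM. Among the genes other than stathmins, the duplicates separate at E17 and P0 for Map1a, Map1b, Mapt and Dcx, and at P0 for Map2 and Dclk1.

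Among the microtubule-associated proteins, Mapt rose most. Its gene lies on the forward strand of chromosome 11 (chr11:104231390-104332090, GRCm38), and its protein binds microtubules mostly in axons. Mapt stood at 82.8 and 90.4 TPM at E12.5, 163.9 and 139.4 at E14, 625.0 and 665.5 at E15.5, 896.2 and 757.2 at E17, and 967 and 1129 at P0. Both libraries of each stage were above both of the stage before. The change from E12.5 to P0 was 3.58 (SE 0.11, adjusted p = 1.39e-10), and 58.3% of it fell between E14 and E15.5. Only 0.678% of the genes tested rose by more. All 4 steps were called, at 0.80, 2.09, 0.35 and 0.34. The third was lost without any one library of E12.5 or E15.5 or replicate 1 of E17 (0.23 to 0.40). The last was lost without replicate 2 of E17 (0.22) or of P0 (0.23). Library weights lost the third (adjusted p = 0.125) and the last (0.155), and quantile normalization lost the last (0.148). Of the 22 alternatives, 11 lost the third step and 6 the last. Reads assigned to Mapt belong to the 3-repeat and the 4-repeat forms of tau alike, which gene totals do not separate.

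Map2 (chr1:66175273-66442583, forward), whose protein marks dendrites and cell bodies, rose 2.14-fold from E12.5 to P0, for the most part by E15.5. It was listed at 164.4 and 163.9 TPM at E12.5, 197.1 and 199.5 at E14, 333.8 and 336.2 at E15.5, 360.8 and 363.3 at E17, and 306.0 and 395.3 at P0. The rise of 0.75 from E14 to E15.5 (SE 0.10, adjusted p = 8.68e-05) made 69.9% of the whole change of 1.08. From E15.5 on the fitted steps were 0.11 and -0.06, neither called, and the P0 libraries lay on both sides of the E17 libraries. Without replicate 2 of P0 the last step was called lower (-0.24, adjusted p = 0.0286), and with a correction for length and GC content, chosen after seeing the data, it was called higher (0.34, adjusted p = 0.034).

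Map1a and Map1b encode related proteins, each cut into a heavy and a light chain; Map1b is known for growing axons and Map1a for mature neurons. Map1b (chr13:99421446-99516540, reverse) was at 224.4 and 234.4 TPM at E12.5, 211.4 and 221.3 at E14, 252.7 and 260.5 at E15.5, 348.7 and 267.7 at E17, and 236.2 and 342.8 at P0. No step of Map1b was called, and its P0 libraries, although both above those of E12.5, enclosed 1 of the E17 libraries. The values turned on single libraries of E17 and P0. With 1 library left out, the change from E12.5 to P0 ran from 0.042 to 0.58, the latter without replicate 1 of P0. With median-ratio scaling it was 0.59 (adjusted p = 0.00191). It was called under 8 of the 22 alternatives and not under the other 14. The step from E15.5 to E17 ran from 0.061 to 0.44 with 1 library left out, the latter without replicate 2 of E17.

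Map1a (chr2:121289600-121310832, forward) was the least abundant of the 10 genes at every stage. Its level was 13.3 and 15.2 TPM at E12.5, 13.96 and 13.1 at E14, 10.5 in both libraries at E15.5, 18.2 and 11.6 at E17, and 17.6 and 20.8 at P0. The change from E12.5 to P0 was 0.40 (SE 0.17, adjusted p = 0.0483), close to the threshold. The call was lost when any single library of E12.5, E14, E15.5 or P0 was left out (change between 0.29 and 0.51). It was also lost with no filter (adjusted p = 0.0696) and with the replicate number as a block (0.0545). Both E15.5 libraries were below all 8 others. The step down to E15.5, -0.34, had an adjusted p of 0.115 with all libraries and of 0.00437 and 0.00431 without replicate 1 or replicate 2 of E17. The steps from E15.5 to E17 and onward, 0.44 and 0.37, were not called with all libraries and TPM as deposited. Median-ratio scaling called both (0.425 and 0.478, adjusted p = 0.0363 and 0.0143). Quantile normalization did so too (0.366 and 0.559, adjusted p = 0.034 and 0.00328). With 1 library left out, the step from E15.5 to E17 ran from 0.14 to 0.74 and that from E17 to P0 from 0.071 to 0.67. The upper ends, without replicate 2 and without replicate 1 of E17 respectively, rested on different E17 libraries and cannot both hold. Exons of Map1a share 272 bases with Ppip5k1 on the opposite strand, and whether reads were counted by strand was not given in the sources used here.

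Both doublecortins rose between E14 and E15.5, and Dclk1 gained on Dcx by P0. Dcx (chrX:143855842-143933311, reverse) was the second most abundant of the 10 genes up to E15.5, at 1013 and 980 TPM at E12.5, 1389 and 1390 at E14, 2384 and 2354 at E15.5, 2557 and 2077 at E17, and 1689 and 2301 at P0. Its step from E14 to E15.5 was 0.77 (SE 0.14, adjusted p = 0.000848), and its change from E12.5 to P0 was 0.98 (adjusted p = 5.215e-05). The step from E12.5 to E14, 0.48 (adjusted p = 0.0586), was not called. It was called under 9 of the 22 alternatives, among them median-ratio scaling (0.535, adjusted p = 0.0302) and quantile normalization (0.392, 0.0455). After E15.5 the libraries of neighbouring stages overlapped. The step from E17 to P0, -0.23 (adjusted p = 0.22), was called lower without replicate 2 of E17 (-0.38, adjusted p = 0.0114) or of P0 (-0.45, 0.031), and reached 0.04 after correction for length and GC content, an alternative chosen after seeing the data.

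Dclk1 (chr3:55242364-55539068, forward) encodes a doublecortin domain joined to a protein kinase, with shorter forms that have only one of them. It was at 82.6 and 82.0 TPM at E12.5, 107.4 and 98.2 at E14, 221.7 and 238.2 at E15.5, 264.8 and 249.1 at E17, and 267.5 and 343.4 at P0. Each stage lay above the one before without overlap. The whole change was 1.87 (SE 0.11, adjusted p = 1.82e-08), of which 61.8% came between E14 and E15.5, the single step that was called. The first step, 0.32 (adjusted p = 0.0905), was called under 9 of the 22 alternatives, and the last under 3. Median-ratio scaling called both (0.371 and 0.35, adjusted p = 0.0381 and 0.0174). The last step, 0.24, ran from 0.059 to 0.42 with 1 library left out, the latter without replicate 1 of P0. Over 1089 aligned coding bases Dcx and Dclk1 were 74.5% identical, and their longest identical run was 23 bases. Their promoter windows, 250 bases before to 50 bases after a RefSeq start (GRCm38.p6), are shown because the ratio of the 2 related genes changed over the stages. Capitals mark TATAAA and CCAAT, searched on both strands.
Dcx (chrX:143933170-143933469, reverse): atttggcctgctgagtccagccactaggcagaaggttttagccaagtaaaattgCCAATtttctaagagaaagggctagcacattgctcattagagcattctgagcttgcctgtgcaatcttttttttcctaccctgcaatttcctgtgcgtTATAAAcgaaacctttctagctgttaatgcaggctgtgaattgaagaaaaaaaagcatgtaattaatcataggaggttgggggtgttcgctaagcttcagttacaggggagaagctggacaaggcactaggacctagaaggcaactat
Dclk1 (chr3:55242114-55242413, forward): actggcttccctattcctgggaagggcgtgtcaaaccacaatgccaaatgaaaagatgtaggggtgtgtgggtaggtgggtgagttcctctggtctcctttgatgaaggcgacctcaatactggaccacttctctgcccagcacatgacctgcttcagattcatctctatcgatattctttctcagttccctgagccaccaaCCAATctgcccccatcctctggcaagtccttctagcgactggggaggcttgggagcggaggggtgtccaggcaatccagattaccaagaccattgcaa

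The Dcx window shown held both motifs and the Dclk1 window shown CCAAT alone. Each gene has a second RefSeq start: the other Dcx window held both motifs too, and the other Dclk1 window (chr3:55461478-55461777) held neither. TATAAA was in 13.6% and CCAAT in 37.4% of 32851 promoter windows of this length, and none of these 4 windows held CAGATG (17.2% of windows) or GGGCGG (35.7%). With 3 CpG dinucleotides in each Dcx window and 5 and 6 in those of Dclk1, all were below the median of 7. RefSeq entries were matched for 6 of the 10 genes. The windows of Map2, Map1a and Map1b held 37, 27 and 23 CpG and that of Stmn3 held 6, and no entry was matched for Mapt, Stmn1, Stmn2 and Stmn4. Such a match describes letters in a window and not a site in use.

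All 4 stathmins rose from E12.5 to P0, and their sum went from 0.241% to 0.948% of all TPM. Because the 4 genes descend from one ancestor, a conserved stretch of their coding sequence (GRCm38 transcripts, GENCODE) shows how far short reads can tell them apart. Capitals mark bases that differ from Stmn1.
Stmn1: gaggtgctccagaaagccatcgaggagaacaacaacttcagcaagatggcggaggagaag
Stmn2: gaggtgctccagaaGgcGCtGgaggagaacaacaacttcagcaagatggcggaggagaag
Stmn3: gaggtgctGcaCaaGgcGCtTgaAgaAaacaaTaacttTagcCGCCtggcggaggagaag
Stmn4: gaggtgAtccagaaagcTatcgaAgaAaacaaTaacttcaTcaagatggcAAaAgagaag

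In this window of 60 bases Stmn2 differed from Stmn1 at 4 bases, Stmn4 at 9 and Stmn3 at 14. Over the aligned bases of their coding sequences, gaps left out, the 6 pairs were between 70.2% and 73.7% identical. Their longest shared run was 43 bases, between Stmn1 and Stmn2. None of the 4 shared a stretch of 50 bases with another stathmin. Of the 50-base windows of the Stmn1 transcript, 36.5% also occurred in the processed pseudogene Gm11223 (chr4:69925630-69926079) or in the overlapping microRNA gene Gm23634, against 0% to 1.89% for the other 9 genes. How the authors counted reads that match 2 genes could therefore affect the Stmn1 level.

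Stmn1 (chr4:134468320-134473843, forward), a cytosolic stathmin also found in dividing cells, was the most abundant of the 10 genes up to E17. Its level was 1593 and 1624 TPM at E12.5, 1836 and 1807 at E14, 3025 and 3361 at E15.5, 3482 and 4016 at E17, and 3656 and 3951 at P0. It rose by 1.24 from E12.5 to P0 (SE 0.11, adjusted p = 8.16e-07), with 65.1% of that between E14 and E15.5. The E17 and P0 libraries overlapped, and the step between them was 0.02 (adjusted p = 0.88). The step from E15.5 to E17, 0.23, was not called and ran from 0.13 to 0.33 with 1 library left out, the latter without replicate 1 of E17.

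Stmn2 (chr3:8509360-8561606, forward), or SCG10, carries a membrane anchor and is concentrated in growth cones. It was at 482.9 TPM in both libraries of E12.5, 724.9 and 709.0 at E14, 2080 and 2117 at E15.5, 2395 and 2837 at E17, and 3953 and 3944 at P0. With no overlap between neighbouring stages, all 4 of its steps were called: 0.57, 1.55, 0.31 and 0.60 (SE 0.10 each; adjusted p = 0.00588, 3.37e-07, 0.0356 and 0.000745). The first was not called without any one library of E12.5 or E14 (adjusted p between 0.065 and 0.0828). The third was lost without any one library of E12.5, E14 or E15.5. It was also lost with median-ratio scaling (adjusted p = 0.108), library weights (0.119) or only the 2 stages fitted (0.227). Fitting only E17 and P0 lost the last (0.0585).

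Stmn3 (chr2:181306459-181314500, reverse), or SCLIP, is another anchored, neuronal stathmin. Its levels were 254.2 and 269.6 TPM at E12.5, 383.7 and 371.4 at E14, 747.2 and 760.1 at E15.5, 742.4 and 852.9 at E17, and 1126 and 989 at P0. It rose 4.04-fold over the whole course, and its step from E15.5 to E17 was 0.08 with overlapping libraries, whereas the other 3 steps were called. For Stmn3 the last step, 0.41 (adjusted p = 0.00545), was lost when only E17 and P0 were fitted (adjusted p = 0.0849). Its first step, 0.53 (SE 0.09, adjusted p = 0.00674), missed the threshold without any one library of E12.5 or E14 (adjusted p between 0.0569 and 0.0949).

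Stmn4 (chr14:66344296-66361680, forward), or RB3, was the least abundant stathmin at each stage and showed the largest single step of the 10 genes. It stood at 56.1 and 57.1 TPM at E12.5, 93.2 and 91.4 at E14, 419.4 and 488.7 at E15.5, 543.9 and 584.9 at E17, and 652.8 and 692.7 at P0. The step from E14 to E15.5 was 2.28 (SE 0.08, adjusted p = 8.74e-09), and 0.165% of the genes tested rose by more. The last step was 0.25 (adjusted p = 0.0336). It was not called without any one library of E12.5, E14 or P0 or without replicate 1 of E17. Quantile normalization (0.142) and library weights (0.288) lost it too. The step from E15.5 to E17, 0.32 (0.0209), was not called without replicate 1 of E15.5 or with library weights (0.157).

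By step, the interval from E14 to E15.5 held the most calls. From E12.5 to E14, 4 of the 10 genes rose (Mapt, Stmn2, Stmn3 and Stmn4), where 3.95% of all genes were called higher. That count was 2 without any one library of E12.5 or E14, 8 without either library of E17 and 7 without either of P0. The number of all genes called higher moved with it, from 239 to between 56 and 82, to 662 and to 251. From E14 to E15.5, 8 of 10 rose, all but Map1a and Map1b, where 18.4% of all genes were called higher, and the median change was 0.90 beside -0.13 over all genes. These 8 calls held under each of the 22 alternatives. From E15.5 to E17, 3 of 10 rose (Mapt, Stmn2 and Stmn4), where 14.4% of all genes did. This count was 0 without replicate 1 of E15.5 (1 gene at an unadjusted p under 0.05), 1 without replicate 2 of E15.5 or either library of E12.5, and 5 without replicate 2 of E17. Over all genes the 871 called higher became 303, 321, 664 or 665, and 2118 in these fits. From E17 to P0, 4 of 10 rose (Mapt, Stmn2, Stmn3 and Stmn4), beside 12.9% of all genes. It was 0 when only the libraries of E17 and P0 were fitted (2 genes at an unadjusted p under 0.05, and 296 of all genes called higher) and 8 after correction for length and GC content, where 1744 of all 6048 genes were called higher, against 781 without the correction.

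**Figure D2:**
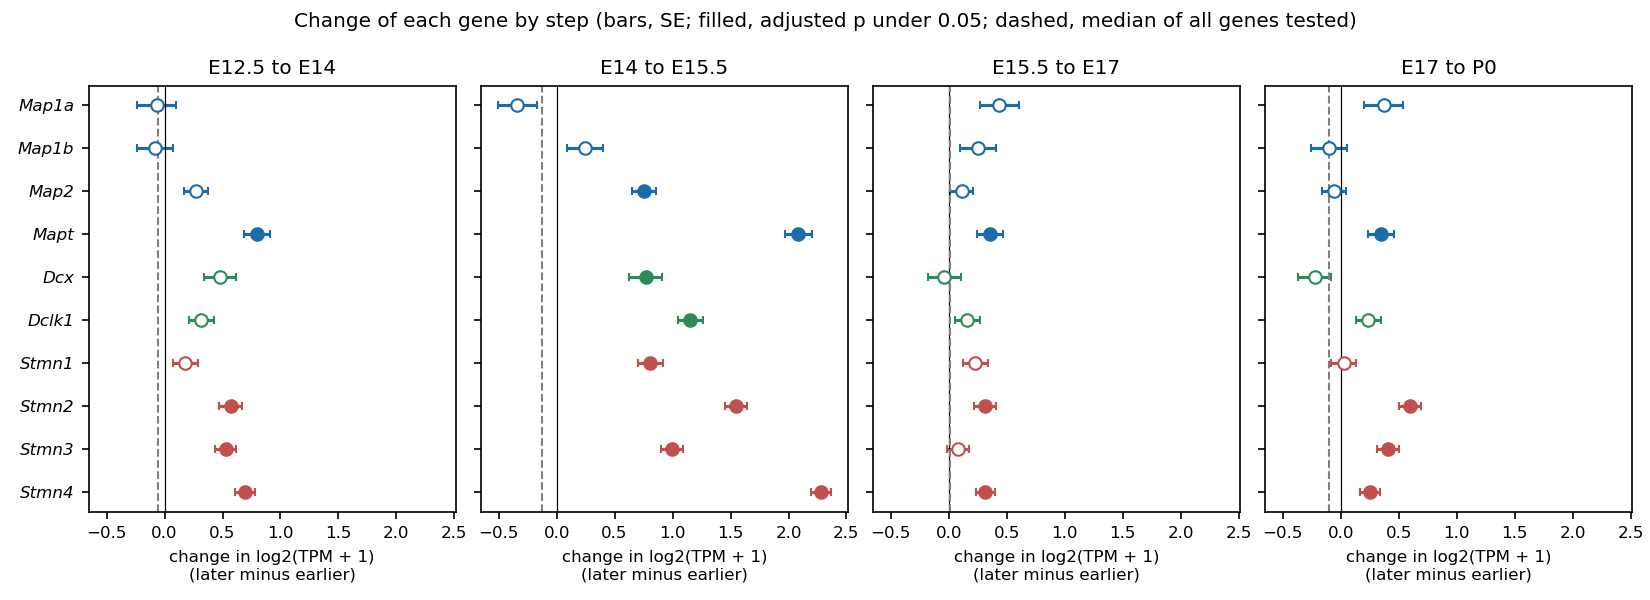
Change in log2(TPM + 1) of each of the 10 genes (horizontal axis) in the 4 steps between neighbouring stages, with bars for the SE, filled points for an adjusted p under 0.05 and a dashed line at the median of all genes tested. Filled points number 4, 8, 3 and 4 from left to right, and the Mapt and Stmn4 points at 2.09 and 2.28 stand apart in the step from E14 to E15.5.

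Between E12.5 and E14 the erythroid sum went from 4320 to 4490 TPM to 1880 to 1980 TPM, the meningeal sum from 173 to 106 to 111 TPM and the choroid plexus sum from 303 to 452 TPM to 1400 to 1520 TPM. All 3 were far lower at E15.5. The summed level of 5 meningeal genes went from 106 to 111 TPM at E14 to 2.8 to 3.03 TPM at E15.5, that of 2 choroid plexus genes from 1400 to 1520 TPM to 3.46 to 4.25 TPM, and that of 3 erythroid genes from 1880 to 1980 TPM to 9.26 to 9.84 TPM, with Hbb-bh1 at 0 in some libraries. Postmitotic neuron markers went from 1840 to 1990 TPM to 3860 to 3980 TPM and proliferation markers from 1400 to 1460 TPM to 630 to 656 TPM. Their part in the rise of the genes in either step was not tested. With only the 6 libraries of E15.5, E17 and P0, a comparison chosen after seeing the data, 6 of the 10 genes rose from E15.5 to P0, where 15.6% of all genes were called higher. They were Stmn2 (0.91, adjusted p = 0.00106), Map1a (0.81, 0.0101), Mapt (0.70, 0.00257), Stmn4 (0.57, 0.00347), Stmn3 (0.49, 0.0102) and Dclk1 (0.40, 0.0318). Stmn1 (0.25), Map1b (0.15), Map2 (0.05) and Dcx (-0.26) were not called.

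The balance within each family shifted toward Stmn2, Mapt and Dclk1. Over the 5 stages in order, Stmn1 made up 66.7%, 60.6%, 49.1%, 48.5% and 40.1% of the summed stathmin TPM, while the share of Stmn2 was 20.0%, 23.8%, 32.3%, 33.8% and 41.6%. Stmn3 held 10.9% at first and 11.2% at P0, and Stmn4 went from 2.35% to 7.09%. Mapt supplied 17.5% of the TPM of the 4 microtubule-associated proteins at E12.5 and 61.6% at P0, as Map1b went from 46.4% to 16.8% and Map2 from 33.2% to 20.5%. Dclk1 supplied 7.63% of the doublecortin pair at E12.5 and 13.3% at P0. The size of each share rests on the gene length behind the TPM, which was not given.

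**Figure D3:**
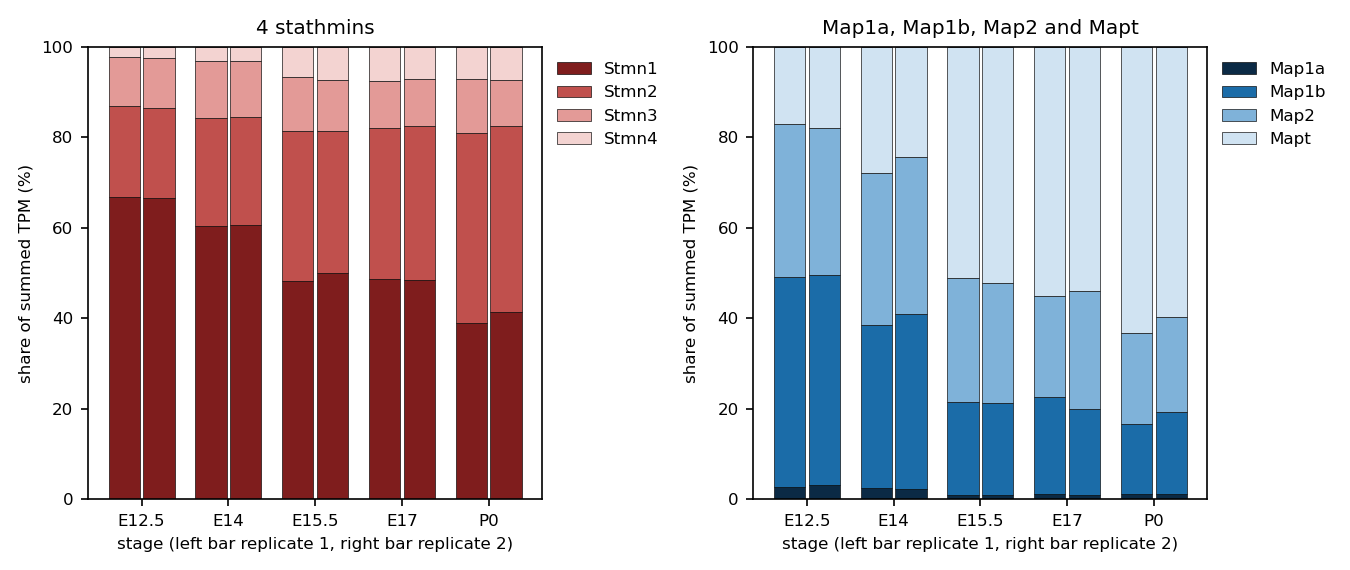
Share of the summed TPM (vertical axis, percent) of the 4 stathmins (left) and of Map1a, Map1b, Map2 and Mapt (right) in each of the 10 libraries, 2 bars per stage. Stmn1 shrinks from 66.7% to 40.1% and Mapt grows from 17.5% to 61.6% of their families (means of E12.5 and P0), and the 2 bars of a stage are close.

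Ratios of related genes within a library do not depend on how libraries are scaled to each other by a common factor, apart from the added 1. For 4 ratios the F statistic between stages was set against its value in all 945 pairings of the libraries (exact permutation, smallest possible p 0.00106). The log2 ratio of Mapt to Map2 was, from the first stage to the last, -0.92 ± 0.09, -0.39 ± 0.18, 0.94 ± 0.06, 1.18 ± 0.18 and 1.58 ± 0.10 (SD, n = 2 each) (exact p = 0.00106, adjusted p = 0.00212). Mapt thus lay below Map2 in every library of E12.5 and E14 and above it in every library from E15.5 on. The stage of this crossing depends on the gene length behind the TPM, which was not given. Map2 has 16449 exon bases in all but 6258 in its longest transcript, and Mapt has 7531 and 5253. The change of the ratio between stages does not depend on that length, apart from the added 1. For Stmn2 to Stmn1 it was -1.73 ± 0.02, -1.34 ± 0.01, -0.60 ± 0.09, -0.52 ± 0.03 and 0.06 ± 0.08 (exact p = 0.00212, adjusted p = 0.00282), so that the P0 libraries lay at 0.113 and -0.002. For Dclk1 to Dcx it was -3.58 ± 0.03, -3.75 ± 0.09, -3.36 ± 0.09, -3.16 ± 0.15 and -2.70 ± 0.06 (exact p = 0.00106, adjusted p = 0.00212), with both P0 libraries above all others. The ratio of Map1a to Map1b dipped at E15.5 to -4.49 ± 0.03 from -3.92 ± 0.08 at E12.5 and was -3.83 ± 0.22 at P0 (exact p = 0.0307 before and after adjustment). It lost its call without any one library of E12.5, E14 or E15.5 (exact p between 0.0519 and 0.101).

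Ordered by mean TPM, the first 4 places at E12.5 and E14 were Stmn1, Dcx, Stmn2 and Stmn3, followed by Map1b, Map2, Mapt, Dclk1, Stmn4 and Map1a. No 2 neighbours in that order had overlapping libraries. At E15.5 the first 4 were the same, but Mapt and Stmn4 had passed Map2 and Map1b, again without overlap. At E17 Stmn2 and Dcx followed Stmn1 with overlapping libraries, and so did Mapt and Stmn3 behind them. At P0 the order was Stmn2, Stmn1, Dcx, Stmn3, Mapt, Stmn4, Map2, Dclk1, Map1b and Map1a, where Stmn2 and Stmn1, Stmn3 and Mapt, and the run of Map2, Dclk1 and Map1b overlapped. Stmn4 and Dclk1, just above Map1a in the order of E12.5, were both above Map1b in mean level at P0, although the libraries of Dclk1 and Map1b did not separate. All of these ranks rest on the gene length behind the TPM, which was not given.

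Over all genes, the differences between the duplicates of E17 and P0 varied with exon length, and the 10 genes followed this in part. Over 2381 genes with at least 6000 exon bases, replicate 2 was below replicate 1 by a median of 0.276 on the log2 scale at E17 and above it by 0.118 at P0, and over 554 genes of at most 2000 bases the medians were 0.102 and -0.062. Map1a, Map1b, Map2, Mapt, Dcx and Dclk1 all have more than 6000 exon bases, from 7531 for Mapt to 16449 for Map2, whereas Stmn1, Stmn3 and Stmn4 have fewer than 2000. At P0 the 6 long genes were higher in replicate 2 by 0.22 (Mapt) to 0.54 (Map1b). The shorter genes were divided, with Stmn1 at 0.11, Stmn4 at 0.086, Stmn2 at -0.003 and Stmn3 at -0.19. At E17 the long genes were divided as well: Map1a, Map1b, Dcx and Mapt were lower in replicate 2 by 0.60, 0.38, 0.30 and 0.24, Dclk1 by 0.088, and Map2, the longest, was at 0.01. The 4 stathmins were higher there by 0.11 to 0.25. After correction for length and GC content the step of Map1b from E17 to P0 was 0.28 in place of -0.10 (adjusted p = 0.0262). That of Map2 was 0.34 in place of -0.06 (0.034), that of Map1a 0.68 in place of 0.37 (3.35e-05) and that of Dclk1 0.61 in place of 0.24 (0.000627). All of these were called higher.

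The genes whose course was most like that of each member were found by the root mean square difference (RMS) of centred log2 values over the 10 libraries, among 5420 other genes that averaged 10 TPM or more. Sybu, whose product links cargo to kinesin on axonal microtubules, was nearest to both Mapt (RMS 0.0921) and Stmn4 (0.146), and the second places went to Trim67 (0.119) and Opcml (0.19). Stmn2 was nearest to Eef1a2 (0.113), a neuronal and muscle elongation factor, and Ndrg4 (0.136). Stmn3 was nearest to Mllt11 (0.0842) and Rab3a (0.0987), a small GTPase of synaptic vesicles, and Stmn1 to Rufy3 (0.0756) and Khdrbs3 (0.0864). Dcx was nearest to Rbfox2 (0.103), a splicing regulator, and Dab1 (0.108), the adaptor of reelin signalling. Dclk1 was nearest to Tmod2 (0.0813) and Fam110b (0.0939), Map2 to Fam117b (0.075) and Lgalsl (0.0757), Map1b to Akap11 (0.0816) and Magi3 (0.0966), and Map1a to Wdr6 (0.112) and Mkl2 (0.123). For comparison, the median RMS over these genes was 1.56 for Stmn4, 1.52 for Mapt and 0.378 for Map1b. Among the members themselves, Map2 lay nearest to Stmn1 (0.12) and Mapt to Stmn4 (0.123). Others had no member so near: for Stmn2 the nearest was Mapt (0.339), and for Map1a it was Map1b (0.276).

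Other genes of the microtubule system were read from 5 lists by function, from E12.5 to P0, where 27.1% of all genes were called higher and 51% lower. Of 16 other microtubule-associated proteins tested, 13 rose and 2 fell (median change 0.91). Map6, which protects microtubules from cold, rose by 2.24 (SE 0.12, adjusted p = 9.05e-09), from a mean of 21.1 to 103 TPM, and Hn1l, the older symbol of Jpt2, went from 541 to 70.4 TPM (-2.93, SE 0.08, adjusted p = 4.645e-11). Of 20 kinases and phosphatases that act on microtubule proteins, 13 rose and 2 fell (median 0.69), with Brsk1, a kinase of neuronal polarity, at 1.46 (SE 0.09, adjusted p = 3.52e-08) and Stk11, the kinase that activates it, at -0.37 (SE 0.08, adjusted p = 0.00083). Under median-ratio scaling 17 of these 20 were called higher and 0 lower, so the fall of Stk11 was not called there. Among 24 end-binding and anchoring proteins 14 rose and 5 fell (median 0.42). The end-binding protein gene Mapre2 rose by 2.08 (SE 0.09, adjusted p = 1.13e-09), and Tacc3, which acts at the mitotic spindle, fell by 3.22 (SE 0.09, adjusted p = 7.66e-11).

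Of 16 tubulin modification and folding factors, 10 rose and 2 fell (median 0.44), led by Agtpbp1, which trims glutamates from tubulin, at 1.98 (SE 0.10, adjusted p = 4.80e-09), and with Tbcel at -0.52 (SE 0.13, adjusted p = 0.00362). With quantile normalization 12 of this list were called higher and 0 lower. Only 6 of 15 severing and depolymerising proteins were tested, and 2 rose and 2 fell (median 0.09). Its 3 kinesins did not move alike. Kif2a, which trims axon branches, rose by 0.76 (SE 0.09, adjusted p = 9.95e-06), from 54.5 to 93.1 TPM. Kif2c, which works at centromeres of dividing cells, went down from 39.3 to 2.09 TPM (-3.70, SE 0.11, adjusted p = 7.36e-11). Kif18b, a mitotic kinesin, did so from 22.5 to 1.51 TPM (-3.23, SE 0.15, adjusted p = 3.28e-09). It was named after its value was seen. Under median-ratio scaling 4 of the 6 were called higher and 2 lower. All 5 lists had a higher median than the -0.27 of all genes and a lower one than the 1.55 of the 10 genes, and these medians were not tested against each other.

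**Figure D4:**
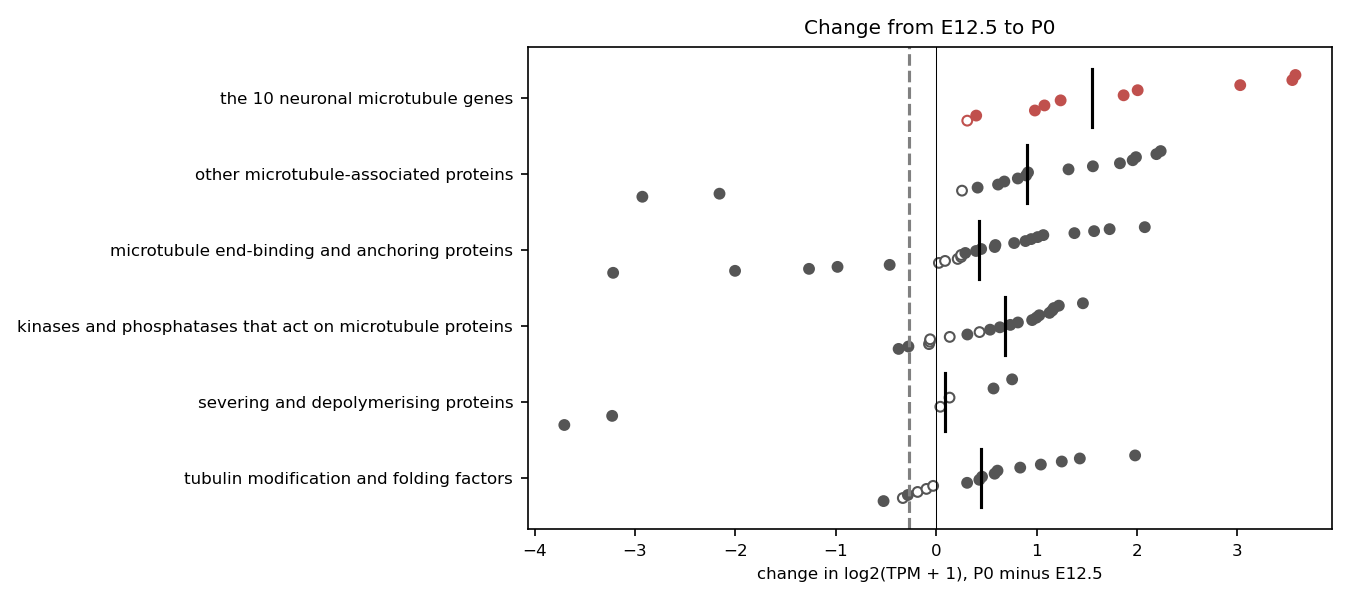
Change in log2(TPM + 1) from E12.5 to P0 (horizontal axis) of each gene of the 10 neuronal microtubule genes (red) and of 5 lists of other microtubule genes (grey), filled where the adjusted p was under 0.05, with black bars for the median of each row and a dashed line for the median of all genes tested. The red points reach furthest right, to 3.58, and the furthest left are Kif2c at -3.70, Kif18b at -3.23 and Tacc3 at -3.22.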

How the data were processed

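RNA of mouse neocortex lysate was measured by RNA-seq in 10 libraries, made from polyadenylated RNA with a strand-specific kit per the labels' protocols. The authors deposited TPM values, 1 column per library per the file headers, for 6147 genes. The submitters' processing notes name STAR, Subread and GRCm38.p5; the annotation, the gene length behind the TPM and the strand setting of the counting were not given in the sources used here. TPM keeps no depth, so sequencing depth is unknown and no counting interval was formed. TPM are shares of a total, so abundant genes that rise lower all others.

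Stages came from the labels and columns were matched by name (0 columns left without a sample). The members and gene lists were chosen with earlier results of these data known. Values were tested on the log2(TPM + 1) scale for 6048 genes (99 averaged less than 1 TPM), with limma 3.58.1 in R 4.3.3: 1 mean per stage over all 10 libraries, 5 residual degrees of freedom, a variance trend and Benjamini-Hochberg adjustment over all genes. A fold change on the log2(TPM + 1) scale understates that of low genes. The median SE of a change was 0.107. Ratios were tested in Python 3.11.15 with numpy 2.4.6. Both tests were run on simulated data with the same spread at every stage. The wider spread of the E17 and P0 duplicates was therefore not covered. Genes named beside the members were, by rule, those with the highest and lowest called change in each list and the 2 nearest in course to each member. Exon lengths and overlaps came from GENCODE (GRCm38), with 6146 genes matched by identifier. Alternatives covered the pseudocount, the filter, scaling, variance trend, library weights, the stages fitted, the threshold, a replicate block, each library left out, and, chosen after seeing the data, a correction for length and GC content and the comparison of E15.5 with P0 alone.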

Additional observations from a re-analysis of the deposited data

How the results depend on the processing

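With 2 libraries per stage the precision rests on a shared estimate of the spread, and depth is unknown. Each of the 50 member changes was recomputed under 22 alternatives. All 10 changes from E12.5 to P0 stayed positive under all of them, and the number called was 8 to 10 (8 to 10 with 1 library left out). From E14 to E15.5 it was 8 to 10 (8 to 9). Array weights, which counted the E17 and P0 libraries less, gave 8 calls from E12.5 to E14, 0 from E15.5 to E17 (4 at an unadjusted p under 0.05) and 2 from E17 to P0, with 2411, 758 and 1145 of all genes called in either direction in place of 528, 1514 and 2525. Fitting only the libraries of the 2 stages gave 8, 0 (2 unadjusted) and 0 (2 unadjusted), with 2479, 120 and 1126 of all genes, and an adjusted p under 0.01 gave 0 (4 unadjusted) between E15.5 and E17 and 2 between E17 and P0, where the length and GC correction gave 8. Leaving out 1 library gave 2 to 8 calls from E12.5 to E14, 0 to 5 from E15.5 to E17 and 3 to 4 from E17 to P0. Replicate numbers did not pair the libraries (correlation of deviations between -0.375 and 0.107 over 10 pairs of stages, 1 of them above 0.1), and the replicate block changed 1 call of 50, Map1a from E12.5 to P0 (0.40, adjusted p = 0.0545). The ratio of Map1a to Map1b, whose rise from E12.5 to P0 was 0.09, reversed to -0.036 with a pseudocount of 10 TPM and to -0.08 with the length and GC correction, and ranged from -0.066 (without replicate 1 of P0) to 0.24 with 1 library left out. The other 3 ratios kept direction and call. Steps not called with all libraries changed sign as follows. With the length and GC correction, Map2 was -0.15 and Dclk1 -0.063 between E15.5 and E17, and between E17 and P0 Map1b was 0.28 and Map2 0.34, both called higher, and Dcx 0.043. With median-ratio scaling Map1b was 0.01 and Map2 0.054 between E17 and P0, and with quantile normalization Dcx was 0.059 between E15.5 and E17 and Stmn1 -0.15 between E17 and P0. With 1 library left out, the step from E17 to P0 ran from -0.37 to 0.17 for Map1b, from -0.24 to 0.13 for Map2 and from -0.080 to 0.13 for Stmn1, that from E15.5 to E17 from -0.19 to 0.11 for Dcx and from -0.022 to 0.18 for Stmn3, and that of Map1a from E12.5 to E14 from -0.16 to 0.022. The cause of these shifts was not tested. The total called in each of the 5 other lists moved by at most 1.5 times, but with median-ratio scaling the severing list had 4 genes higher in place of 2 and the kinase list 0 lower in place of 2, and with quantile normalization the tubulin factors had 0 lower in place of 2.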
